A study of Mus musculus with 7 samples.

Results

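The immediate early genes Jun, Junb, Fos, Egr1, Ier2, Klf6, Dusp1 and Btg2, together with the clock gene Per1, were followed in mouse liver as a set of 9 genes among the 32451 on the array. They were picked by symbol, through the RefSeq accession printed beside each probe, and each of the 9 had 1 probe. Of these genes, 4 (Jun, Egr1, Klf6 and Per1) were among the 1488 genes of the deposited value table and could be compared between diets. The other 5 (Junb, Fos, Ier2, Dusp1 and Btg2) were not listed in that table, and only their levels on the high-fat diet arrays are given.

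Immediate early genes are switched on within minutes of a stimulus, without new protein synthesis, when MAP kinases and cAMP signalling act on transcription factors already bound at their promoters. Their transcripts and proteins are short-lived, and many encode transcription factors that set off later waves of expression. In liver they are known for their response to partial hepatectomy, feeding, hormones and injury. Per1 encodes a repressor of the circadian clock whose level follows the time of day, and it is also quickly induced by glucocorticoids and cAMP.

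The animals were male C57/BJ mice that went onto their diet at 6 weeks of age and were killed 20 weeks later, at 26 weeks. In the HFD group (n = 3) the food was a high-fat diet, D12331 from ResearchDiets, and in the chow group (n = 4) it was a control chow from Provimi Kliba. Nothing in the labels gives the hour of death, says whether the animals had fasted or names the animal behind a sample, so p-values measure the spread between these samples. Total liver RNA was labelled with Cy3 and each sample was hybridised to 1 Agilent array. Their number, 7, limits the precision of every value.

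The scanner files labelled chow did not hold the values of the chow columns in the deposited table. Across the table's 1615 probes, each HFD file followed its own column with a Pearson r of 0.99992 to 0.99994, while the files labelled chow followed theirs with r from 0.580 to 0.589. These are correlations across probes, which are not replicates. The 3 HFD arrays detected all 6 hepatocyte markers well above background. Of the same markers, Alb, Apoa1 and Cps1 were not detected so in any of the 4 files labelled chow, whereas Ttr, Tat and Hnf4a were in at least 1 of them. The diet comparison therefore used the table alone. In that table the 2 groups do not overlap at any of the 1615 probes and all 1488 genes have an unadjusted p under 0.05 in limma, so it had been selected on this contrast and its p-values are not independent evidence. All 3 HFD scans share 1 day, on 3 slides. For the table's chow values the day of scanning could not be traced, so it cannot be told apart from diet. On HFD replicate 1 negative control spots averaged 46.9, against 29.9 to 31.4 elsewhere, and its quality summary asked for evaluation.

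Promoter sequences were taken from RefSeq (GRCm38.p6), and 8 entries of 7 of the 9 genes were searched. No entry was found for Ier2, and Egr1 was left out of the search. Each is the 250 bases before an annotated transcription start, read 5′ to 3′ along the gene. The first set shows the 3 genes that passed the diet comparison. Capitals mark matches, on either strand, to any of 8 motifs: the cAMP response element TGACGTCA, the AP-1 site TGANTCA, the AP-1-like site TGACATCA known from Jun, the E-box CACGTG, the CArG box, the TATA box TATAAA, the GC box GGGCGG and the CCAAT box.
Jun, chr4:95052223-95052472, minus strand: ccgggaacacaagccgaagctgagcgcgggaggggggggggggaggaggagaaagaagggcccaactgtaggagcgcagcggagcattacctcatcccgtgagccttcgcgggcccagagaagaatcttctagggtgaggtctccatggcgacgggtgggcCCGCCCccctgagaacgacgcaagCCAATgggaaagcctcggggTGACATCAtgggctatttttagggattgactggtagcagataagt
Klf6, chr13:5861239-5861488, plus strand: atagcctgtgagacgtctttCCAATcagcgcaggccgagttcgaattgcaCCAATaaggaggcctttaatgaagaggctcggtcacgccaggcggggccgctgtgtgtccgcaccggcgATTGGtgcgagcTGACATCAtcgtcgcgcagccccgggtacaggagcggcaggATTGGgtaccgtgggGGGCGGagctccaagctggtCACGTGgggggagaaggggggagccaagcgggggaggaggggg
Per1, chr11:69098699-69098948, plus strand: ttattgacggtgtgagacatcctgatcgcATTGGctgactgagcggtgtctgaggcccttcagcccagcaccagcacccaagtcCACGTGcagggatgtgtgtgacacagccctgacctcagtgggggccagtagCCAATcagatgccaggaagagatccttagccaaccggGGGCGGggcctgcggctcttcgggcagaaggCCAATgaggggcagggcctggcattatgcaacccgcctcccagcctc

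Jun and Klf6 both held TGACATCA, in Jun from -45 to -38 and in Klf6 from -119 to -112 relative to the start, a motif found in 2.93% of all 32851 promoter entries. An E-box lay from -43 to -38 in Klf6 and from -166 to -161 in the Per1 entry shown, against 6.02% of all entries. The other Per1 entry, at a separate annotated start, had a GC box and a CCAAT box but none of the other motifs. The second set shows the 2 genes, of the 7 searched, with an exact cAMP response element, which 1.55% of all entries hold. Both belong to the genes that were not listed in the value table.
Dusp1, chr17:26508473-26508722, minus strand: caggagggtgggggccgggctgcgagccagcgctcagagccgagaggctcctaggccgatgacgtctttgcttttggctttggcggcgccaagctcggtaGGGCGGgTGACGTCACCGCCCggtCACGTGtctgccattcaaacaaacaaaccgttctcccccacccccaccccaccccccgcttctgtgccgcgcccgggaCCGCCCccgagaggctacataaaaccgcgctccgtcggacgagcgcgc
Btg2, chr1:134079156-134079405, minus strand: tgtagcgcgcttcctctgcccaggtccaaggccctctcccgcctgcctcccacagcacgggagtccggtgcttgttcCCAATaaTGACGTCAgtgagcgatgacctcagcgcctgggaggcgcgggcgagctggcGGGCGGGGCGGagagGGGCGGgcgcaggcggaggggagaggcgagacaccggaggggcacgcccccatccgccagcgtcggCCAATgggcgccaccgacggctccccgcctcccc

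The element lay from -143 to -136 in Dusp1 and from -166 to -159 in Btg2. In Dusp1 it stood between a pair of GC boxes, and an E-box followed from -126 to -121. The Fos entry held a TATA box from -33 to -28, a motif in 12.4% of entries, and a GC box, whereas the Junb entry held only a CCAAT box. A CArG box, the site of serum response factor, was in 1.47% of all entries and in none of those searched for these genes within this window. Egr1 and Ier2 were not among the genes searched, so nothing is said of a CArG box there. These matches are descriptions of the sequence and say nothing of what bound there.

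The first question was whether the immediate early genes differed between livers of HFD and chow mice. Jun, Klf6 and Per1 rose in HFD, by 3.27-fold, 2.40-fold and 2.81-fold, and passed at an adjusted p under 0.05 in limma, with p-values adjusted by Benjamini-Hochberg across the array's 32451 genes. Egr1 was 5.50-fold higher but did not pass. All of these folds take the chow columns to share the scale of the HFD columns, which is not known. Over all genes on the array 1.05% were called higher, and 23.0% of the genes in the table were, against 3 of the 9 genes and 3 of the 4 that were listed. These genes were followed because earlier results on the same data had singled them out, so their share is a description. In whole liver, a change in the share of a cell type and a change in RNA per cell cannot be told apart.

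Jun encodes a DNA-binding subunit of the AP-1 transcription factor. Its deposited log2 values were 10.77, 10.50, 11.34 and 10.69 in chow replicates 1 to 4, and 12.94, 12.65 and 12.01 in HFD replicates 1 to 3. Every HFD sample lay above every chow sample, with 0.67 between the nearest pair. The means were 10.83 ± 0.36 (SD, n = 4) and 12.53 ± 0.48 (SD, n = 3). The log2 fold change was 1.71 (SE 0.27, 95% interval 1.06 to 2.36, adjusted p = 0.0388 in limma).

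Klf6 encodes a zinc finger transcription factor of the Krüppel-like family. Its log2 values were 9.38, 9.86, 9.29 and 9.26 in chow and 11.09, 10.55 and 10.49 in HFD. Chow replicate 2 was the highest of its group and HFD replicate 1 the highest of its own, and the groups lay 0.63 apart. The log2 fold change was 1.26 (SE 0.21, 95% interval 0.77 to 1.75, adjusted p = 0.0404 in limma).

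Per1 had log2 values of 10.71, 10.83, 10.30 and 10.95 in chow and 12.27, 12.36 and 11.93 in HFD. Its groups lay 0.98 apart, more than those of the other 3 genes, and its means were 10.70 ± 0.28 (SD, n = 4) and 12.19 ± 0.23 (SD, n = 3). The log2 fold change was 1.49 (SE 0.19, 95% interval 1.05 to 1.93, adjusted p = 0.0255 in limma).

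Egr1, a zinc finger transcription factor induced by growth factors, had log2 values of 7.07, 7.35, 8.24 and 6.999 in chow and 10.77, 10.30 and 8.55 in HFD. The groups were 0.31 apart, because HFD replicate 3 lay far below the other HFD samples and chow replicate 3 was the highest of its group. The means were 7.41 ± 0.57 (SD, n = 4) and 9.87 ± 1.17 (SD, n = 3). The log2 fold change of 2.46 (SE 0.56) had a wide 95% interval, from 1.15 to 3.77, and missed the threshold (adjusted p = 0.0777 in limma). Without HFD replicate 3 the difference was 8.70-fold, with an adjusted p of 0.0307 in limma, where the alternatives tried ran from 0.00356 to 0.711.

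**Figure D1:**
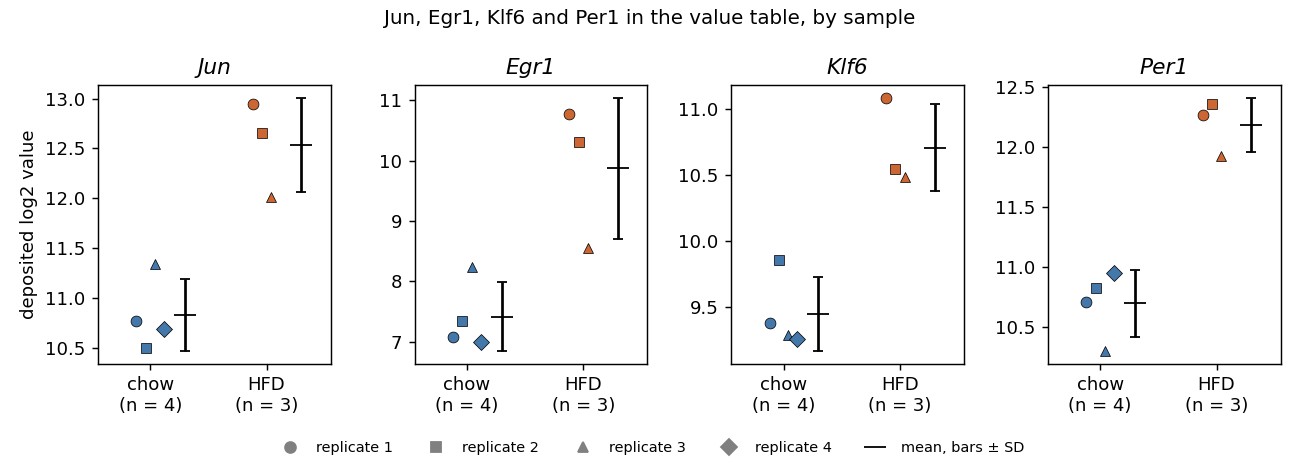
Deposited log2 values (vertical axes, a separate scale per gene) of Jun, Egr1, Klf6 and Per1 in 4 chow and 3 HFD samples, with a marker shape per replicate number and the mean ± SD beside each group. All 3 HFD samples lie above all 4 chow samples for each gene, and HFD replicate 3 is the lowest HFD sample in all 4 panels.

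The calls of Jun, Klf6 and Per1 changed when single samples were left out. Leaving out any 1 of the 6 samples other than HFD replicate 3 left 0 of the 4 genes past the threshold in limma (adjusted p from 0.0543 to 0.322), in fits with fewer samples. The loss was not particular to these genes: those fits called 0 to 99 of the 1488 table genes, where the fit on all samples called 611. All 4 kept an unadjusted p under 0.05, as did all 1488 table genes. Without HFD replicate 3, Jun, Egr1 and Per1 passed and Klf6 did not (adjusted p = 0.0630 in limma). Log2 fold changes had to stay positive in these fits, since the groups do not overlap. They ran from 1.50 to 1.97 for Jun, 1.07 to 1.40 for Klf6, 1.36 to 1.62 for Per1 and 2.01 to 3.12 for Egr1. With each column of the table centred on its median, the median over all table genes moved by -0.21 on the log2 scale and the split of calls went from 342 higher and 269 lower to 185 higher and 605 lower. Jun, Klf6 and Per1 still passed as higher under that centring, with log2 fold changes of 1.50, 1.05 and 1.28.

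The 4 genes did not share 1 order of samples within a group. Within chow, replicate 3 had the highest values of Jun and Egr1, at 0.52 and 0.83 above their group means, and the lowest value of Per1, at -0.40 from its mean. Klf6 was instead highest in chow replicate 2, at 0.41 above its mean. Within HFD, replicate 1 was the highest sample for Jun, Egr1 and Klf6 and replicate 2 for Per1. Egr1 also varied more than most of the table: its SD exceeded that of 95.2% of table genes in chow and of 98.99% in HFD.

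All 9 genes were well above background on all 3 HFD arrays, as were 17631 of the 32451 genes on the array. A probe counted as such if any of its spots did. Levels below are log2 processed signals minus the 75th percentile of the array, so 0 is the brightness of that percentile, and a level is compared only with the same probe on other arrays. Junb and Fos, which also encode subunits of AP-1, had levels of -3.56, -4.27 and -3.78 (Junb) and of -3.41, -3.85 and -3.98 (Fos) on HFD replicates 1 to 3. These are dim probes: the processed signal of Fos was 91.3, 52.4 and 53.2, on arrays whose negative controls averaged 46.9, 29.9 and 30.8. With normexp background correction the SD between the 3 arrays was 0.098 for Fos and 0.067 for Junb, in place of 0.30 and 0.36, so the order of the arrays is not read for these 2 genes. The Fos probe had 10 spots per array, whose SD within an array, a measure of spot noise alone, was 0.107 to 0.153.

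Ier2, which encodes a short-lived nuclear protein, had levels of -2.30, -2.18 and -2.27. These were close together, with an SD of 0.064. Dusp1, a phosphatase that switches off MAP kinases, had levels of -0.31, -0.72 and -0.27 and was lowest on HFD replicate 2. Btg2, an antiproliferative gene of the BTG/TOB family, had levels of -1.21, -0.93 and -1.15 and was highest there. Of the 4 genes in the table, Egr1 fell furthest between arrays, from 1.05 and 0.60 on HFD replicates 1 and 2 to -1.14 on HFD replicate 3. That was a processed signal of 382 on HFD replicate 3 against 2005 and 1150 on the others.

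Jun had levels of 3.13, 2.91 and 2.31, Klf6 of 1.35, 0.85 and 0.79, and Per1 of 2.49, 2.63 and 2.23. Junb and Fos, whose order is not read, are left out of what follows. HFD replicate 1 was the highest array for Jun, Egr1 and Klf6 and the lowest for Ier2 and Btg2. HFD replicate 3 was the lowest for Jun, Egr1, Klf6 and Per1 and the highest for Dusp1. Of all 21669 probes well above background on the 3 arrays, 31.8% were highest on HFD replicate 1 and 30.4% lowest on HFD replicate 3. All 9 genes together, Junb and Fos included, differed in spread: their SDs ran from 0.064 for Ier2 to 1.15 for Egr1. Their median of 0.30, against 0.17 over those probes, is the SD of the dim probe of Fos, which was 0.098 under normexp, so it is not read as a trait of the 9. Egr1 had a larger SD than 99.5% of the probes and was the only one of the 9 above 0.48, their 90th percentile.

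**Figure D2:**
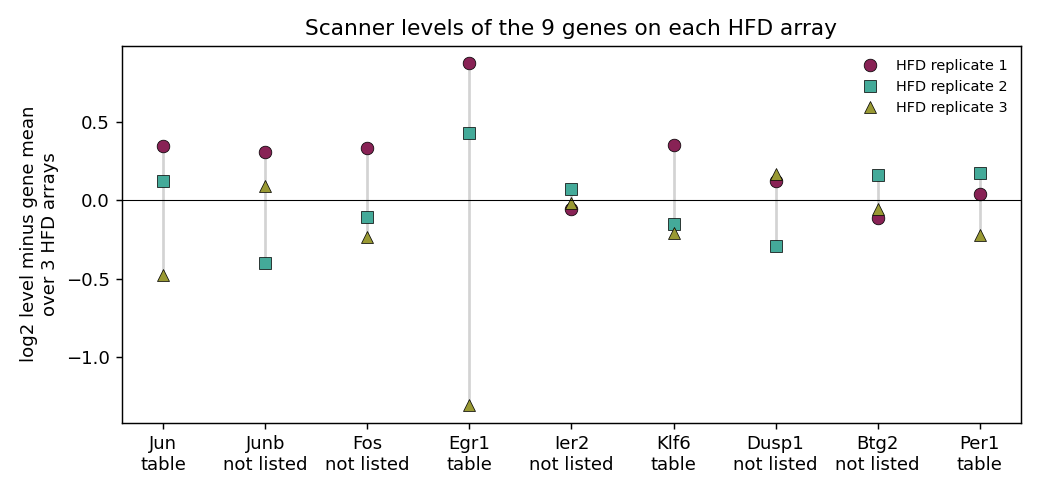
Scanner level of each of the 9 genes on the 3 HFD arrays (vertical axis, log2 processed signal minus the array's 75th percentile, shown as the difference from the gene's mean over the 3 arrays). Points are single arrays. Egr1 spans 2.18 on the log2 scale and Ier2 spans 0.13, and the 3 arrays come in different orders for different genes.

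**Figure D3:**
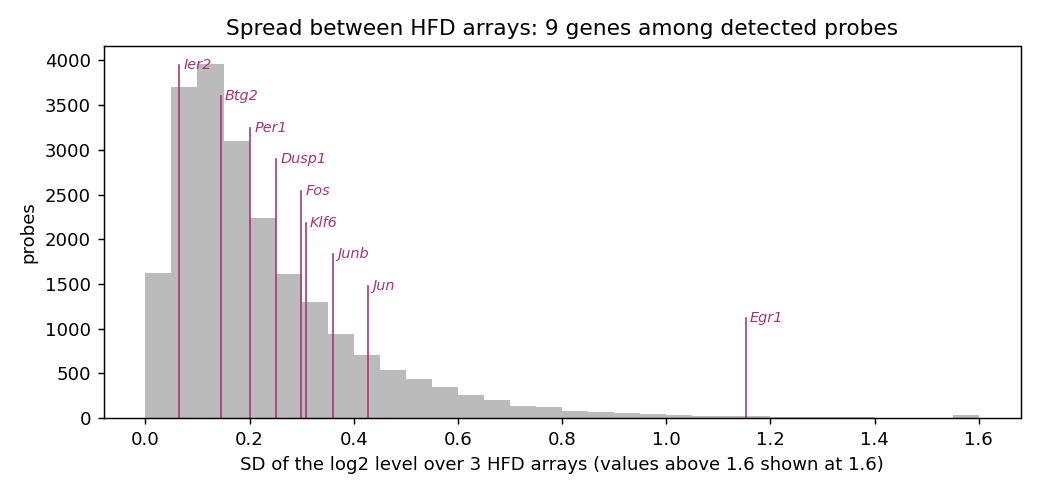
Histogram of the SD of the log2 level over the 3 HFD arrays for 21669 probes well above background on each (horizontal axis, log2 units; vertical axis, number of probes), with lines at the 9 genes. Ier2 and Btg2 lie below the median SD of 0.17, the other 7 genes above it, and Egr1 lies far in the right tail. Junb and Fos, among those 7, are dim probes whose SDs were 0.067 and 0.098 with normexp background correction.

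The wider family of immediate early genes was read from a list of 39 further genes, all with a probe. Of these, 7 (17.9%) were in the value table, where 4.59% of all genes on the array were, and all 7 had a positive log2 fold change with a median of 1.81 against 0.44 over the table. In limma 5 of the 39 passed as higher and 0 as lower, where 1.05% and 0.829% of all genes on the array did. All 7 in the table had an unadjusted p under 0.05, as every table gene did. Atf3, a stress-induced transcription factor, rose 4.59-fold, from 5.43 to 6.30 in chow to 8.98, 7.57 and 7.61 in HFD (adjusted p = 0.0471 in limma). Nr4a2, an orphan nuclear receptor induced by cAMP, rose 3.46-fold (log2 fold change 1.79, SE 0.22). Ccn2, a matrix-associated growth factor and target of YAP, rose 3.74-fold and had 10.94, 10.90 and 10.87 in HFD against 8.44 to 9.28 in chow. Mcl1, a short-lived survival factor of the BCL2 family, rose 1.56-fold, but with centred columns its log2 fold change was 0.43 and it did not pass (adjusted p = 0.212 in limma).

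Egr2, the relative of Egr1, had 7.16, 6.08 and 5.05 in HFD but missed the threshold (adjusted p = 0.0508 in limma), which it met with centred columns (adjusted p = 0.0486). Its chow values, all 4, were under 4.34, the lowest table value detected well above background on HFD replicate 1. With values raised to that limit the difference was 3.37-fold (adjusted p = 0.110 in limma). It is a lower bound only if the chow columns share the scale of the HFD columns, which is not known. Like Egr1 it was highest on HFD replicate 1 and lowest on HFD replicate 3. Btg1, the relative of Btg2, missed it as well, at a log2 fold change of 0.59 (SE 0.13, adjusted p = 0.0777 in limma). Of the 5 calls in this list, Ccn2 passed in 3 of 7 fits that left out 1 sample, Nr4a2 and Dusp6 in 2 each, and Atf3 and Mcl1 in 0 (adjusted p from 0.0684 to 0.166 in limma). In those fits all unadjusted p stayed under 0.05, as for every gene of the table.

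MAP kinase signalling, which drives immediate early genes and is braked by dual-specificity phosphatases, was read from 21 genes, of which 4 (19.0%) were in the table, where 4.59% of all genes on the array were. Of these 4, 3 stood higher and 1 lower, and the 3 higher genes passed, against 1.05% of all genes on the array. Dusp6, the phosphatase of ERK, rose 3.50-fold from 10.78, 11.51, 11.05 and 11.19 in chow to 12.93, 13.18 and 12.71 in HFD (adjusted p = 0.0219 in limma), and also belongs to the previous list. Dusp4, a nuclear MAP kinase phosphatase, rose 2.76-fold, and Mapk9, the kinase JNK2, rose 1.40-fold with an SE of 0.083 on the log2 scale. Map2k4, a kinase that activates JNK, stood at -0.61 on the log2 scale and missed the threshold (adjusted p = 0.0733 in limma). With centred columns Dusp4 and Mapk9 did not pass, at log2 fold changes of 1.25 and 0.27 (adjusted p = 0.0583 and 0.433 in limma), and Map2k4 passed as lower, at -0.83 (adjusted p = 0.0434). With any 1 sample left out, Dusp4 and Mapk9 did not pass in limma (adjusted p from 0.0743 to 0.172).

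**Figure D4:**
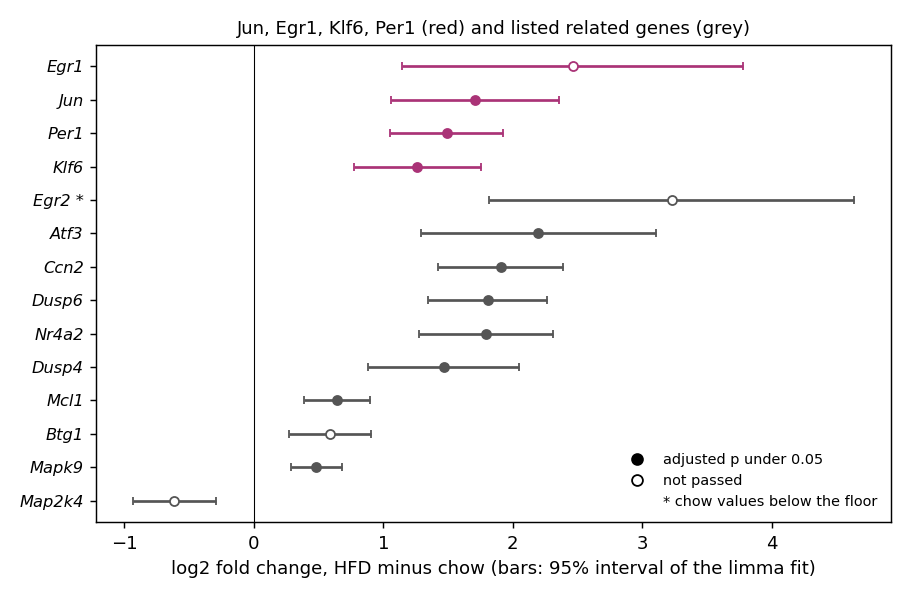
Log2 fold change, HFD minus chow (horizontal axis), with its 95% interval from the limma fit, for Jun, Egr1, Klf6 and Per1 (red) and for the 10 table genes of the immediate early and MAP kinase lists (grey). Filled circles passed at an adjusted p under 0.05, open circles did not, and the fitted value of Egr2 is drawn although all 4 chow values were under the limit taken from HFD replicate 1.

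The lists below are read against the 4.59% of all genes on the array that were in the value table, and are too short for a count of 0 or 1 to stand apart from that share. Of 18 clock genes other than Per1 with a probe, 15 were well above background on all 3 HFD arrays and 0 were in the table. Glucocorticoid targets other than these genes were in the table for 1 of 13, the metallothionein Mt1, which fell 7.51-fold, from 17.67 to 18.23 in chow to 15.19, 15.43 and 14.69 in HFD (adjusted p = 0.0148 in limma), where 0.829% of all genes on the array were called lower. Of 10 further cAMP and fasting targets, 0 were in the table. Of 9 heat shock genes with a probe, 1 was listed, Hsp90aa1, which stood at -0.75 on the log2 scale and missed the threshold (adjusted p = 0.0807 in limma).

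The genes whose values ran closest to each of the 4 were taken as the 3 named table genes, of 1167, with the smallest root mean square difference of log2 values centred on each gene's mean over the 7 samples. Since the table was selected on the diet contrast, all of its genes share a step between the groups. For Egr1 they were Ms4a7, a membrane protein of macrophages (root mean square difference 0.33), Ccr2, a chemokine receptor of monocytes (0.33), and H2-Q1, an MHC class I gene of a multigene family in which the probe's specificity was not tested (0.40). For Jun they were Epdr1 (0.20), Cd74, the invariant chain of MHC class II (0.21), and H2-Eb1, an MHC class II chain (0.22). In HFD replicates 1 to 3 Ccr2 had 8.004, 7.75 and 6.63 and Cd74 had 13.44, 12.80 and 12.09. Both were picked for their likeness over these samples, so a shared order of the samples follows from the choice.

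Klf6 and Per1 had other nearest genes. For Klf6 they were E330011O21Rik (0.096), the spindle checkpoint gene Mad2l1 (0.14) and the kinase Stk39 (0.14). For Per1 they were Tcim (0.18), Rassf4 (0.19) and the sulfotransferase Sult1c2 (0.21). Among the 4 genes themselves, Klf6 and Per1 were the closest pair (0.30), and Egr1 stood 0.57 from Jun and 0.89 or 0.90 from Per1 and Klf6.

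**Figure D5:**
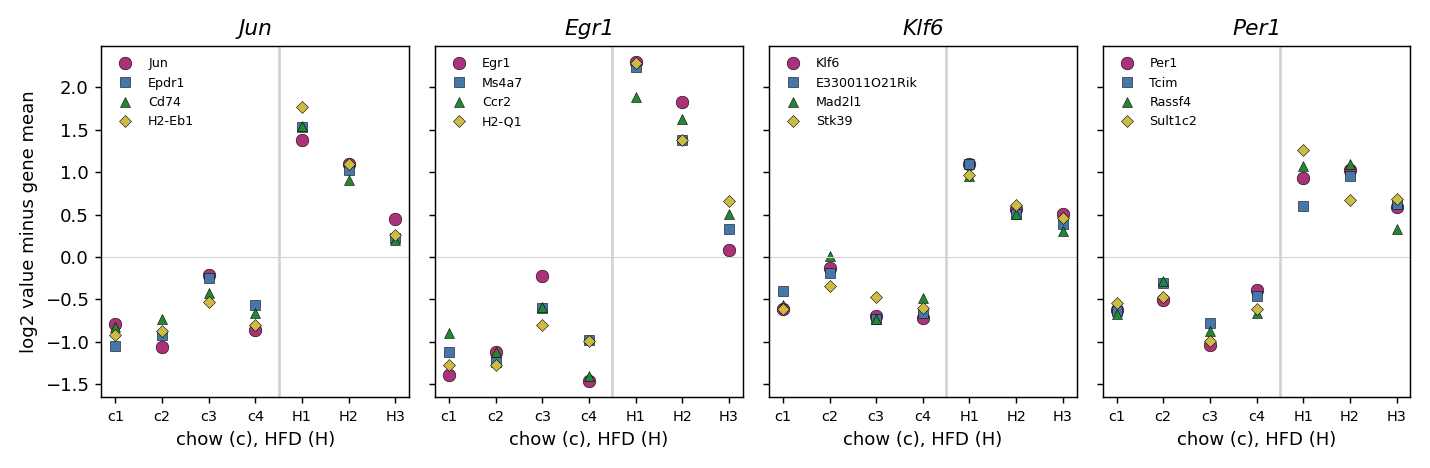
Log2 values centred on each gene's mean (vertical axis) in chow replicates 1 to 4 (c) and HFD replicates 1 to 3 (H) for Jun, Egr1, Klf6 and Per1, each with its 3 nearest named genes of the table. The points of the 4 genes in a panel lie close together because the genes were picked for this, with root mean square differences from 0.096 to 0.40.

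Of 9 macrophage markers, 3 (Itgam, Ccr2 and Gpnmb) were in the table, where 4.59% of all genes on the array were. The 3 passed as higher in limma, where 1.05% of all genes on the array and 23.0% of those in the table did. The other 6 (Adgre1, Clec4f, Cd5l, Csf1r, Marco and Lyz2) have no diet comparison here. The 3 HFD arrays detected all 9 well above background, with a log2 summed level of 6.62, 5.58 and 5.61 on replicates 1 to 3. Itgam had log2 table values of 11.33 to 11.39 in chow and 12.37, 12.12 and 12.04 in HFD. Ccr2 had 4.72 to 5.53 in chow against the HFD values given above, and Gpnmb had 8.64, 7.84 and 5.95 in HFD, with its 4 chow values under the limit of 4.34 taken from HFD replicate 1. The log2 of the summed values of the 3, 11.36 to 11.41 in chow and 12.54, 12.26 and 12.09 in HFD, rests almost wholly on Itgam in chow. Of 6 stellate cell markers, all detected on HFD arrays, the summed level was 3.25, 2.89 and 2.14, and 1, Col3a1, was in the table, at 9.76 to 10.12 in chow and 12.13, 11.76 and 10.77 in HFD. The hepatocyte marker Cps1 was also listed, at 14.27 to 14.89 in chow and 12.67, 13.46 and 13.61 in HFD, as was the platelet gene Pf4, at 8.76 to 9.097 in chow and 10.30, 10.47 and 9.41 in HFD. Col3a1, Cps1 and Pf4 did not pass in limma. None of the endothelial, cholangiocyte, lymphocyte, adipocyte and neutrophil markers was in the table, and Adipoq was not well above background on any HFD array. The part of these cell types in the values of the 9 genes was not tested.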

How the data were processed

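Liver RNA (0.5 microgram per sample, per the labels' protocols) was measured on 1-colour Agilent arrays in 4 chow and 3 HFD samples. The deposited scanner files hold intensity values, background-subtracted by Feature Extraction 10.7.3.1 per the file headers (version 9.1 in the submitters' processing notes). A table the authors deposited holds log2 values for 1615 probes, whose normalization, selection and chow scale are unstated in these sources. HFD columns (medians 9.68 to 9.85) rose with the scanner signal, so their scale and direction are known, unlike those of the chow columns (9.55 to 9.56).

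Probes were named through RefSeq accessions in a gene table of GRCm38.p6, used for names (27234 of 39429 probes), and the arrays' design names mm9. Promoters came from the same build, matched by symbol. Control and outlier spots were left out. The 75th percentile signal was 758 to 971 on the HFD arrays, and no spot was saturated.

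Table genes (probe with the highest mean) were fitted with limma 3.58.1 (R 4.3.3), with a variance prior (0.0354, 2.10 degrees of freedom) from 19514 genes that 2 or 3 HFD arrays detected well above background. Benjamini-Hochberg adjustment covered 32451 genes, with those outside the table counted as not called. The fit was tested on simulated data. Normexp used the median signal, since the mean signal was not in the files. The 9 genes, the gene lists and the tests were chosen with earlier results of these data known. Named genes were the 9, every listed gene found in the table and the 3 nearest genes of each. Alternatives covered the prior, adjustment, probe averaging, centring, floor, moderation, replicate block, scanner scaling and each sample left out.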

Additional observations from a re-analysis of the deposited data

Results flagged for a closer look

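The scanner files labelled chow entered no comparison, but all 9 genes were well above background on all 4 of them. In each of these files 62.1% to 63.7% of all spots were. On the scale of log2 processed signal minus the 75th percentile, 8 of the 9 genes lay higher in each of these files than on every HFD array, and Per1 lay lower, at 1.41 to 1.53 against 2.23 to 2.63 on the HFD arrays. How many of all probes lay wholly higher or lower in these files was not counted, so 8 of 9 is not read as a trait of these genes. Klf6 was at 3.64 to 3.73 in these files against 0.79 to 1.35 on the HFD arrays, and Btg2 was at 1.12 to 1.36 against -1.21 to -0.93. For Jun, Egr1 and Klf6 this order is the opposite of that in the deposited table. Because these files did not match the table's chow columns, the values describe the files and not the diet. Dixon's criterion for 4 samples was put to the chow values of 28 table genes: Jun, Egr1, Klf6, Per1, the listed genes and the nearest genes. No value stood apart. The cell type markers other than Ccr2 were not put to it. Among them Gpnmb had 3.45 in chow replicate 3 against 2.145 to 2.311 in the other chow samples.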

How the results depend on the processing

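The counts of table genes called by limma, 342 higher and 269 lower, were 552 and 474 with the table's own prior, 801 and 687 when adjusted over the table alone, 185 and 605 with centred columns, 6 and 1 without moderation, and 0 and 0 with the replicate number as a block, where all 1488 genes still had an unadjusted p under 0.05. Leaving out 1 sample gave 0 to 243 higher and 0 to 210 lower genes. Of Jun, Egr1, Klf6 and Per1, 3 passed in limma as reported, 0 to 3 when 1 sample was left out, and 0 without moderation or with the replicate block. All 4 kept an unadjusted p under 0.05 in these fits, as did all 1488 table genes. The block gave log2 fold changes of 1.66 for Jun, 1.20 for Klf6 and 1.57 for Per1, with adjusted p from 0.221 to 0.711 over the 4 genes in limma. Deviations of same-numbered samples had r of -0.10, 0.14 and 0.028 across table genes, within the range of -0.16 to 0.14 over all pairs of a chow and an HFD sample. The labels name no pairs, and these correlations cannot settle whether the numbers pair the samples. Without moderation the log2 fold changes remained 1.71, 1.26 and 1.49 and no longer passed. Egr1, at 2.46, passed when adjusted over the table alone. Leaving out 1 sample gave 1.50 to 1.97 for Jun, 1.07 to 1.40 for Klf6, 1.36 to 1.62 for Per1 and 2.01 to 3.12 for Egr1. No alternative reversed a direction. Because the groups do not overlap in the table, only centring of the columns could have done so for these 4 genes. All 9 genes were well above background on each of the 3 HFD arrays, so leaving 1 array out could not change that. Of the 9 scanner levels, 5 moved by more than their SD between arrays under normexp and 1 under quantile normalization. The cause was not tested. Leaving out 1 of 3 arrays cannot move a mean by that much, so it says nothing of stability here. The array medians lie at -3.55 to -3.53 relative to the 75th percentile, so median scaling raises every gene on an array by the same amount by construction. Of 8 listed genes called in the table, 5 kept the call with centred columns and Mcl1, Dusp4 and Mapk9 lost it, while Egr2 and Map2k4 gained one. Fits with fewer samples have less power by construction. The number of arrays limits every value.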
